A study of Mus musculus with 50 samples.

Results

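The tumors described here are the 10 that arose in mice given the insulin analogue X10 and the 10 that arose in mice given insulin-like growth factor 1 (IGF1), 20 of the 50 mammary gland tumors whose RNA was sequenced. They were chosen by the treatment named in their sample titles, 1 title being spelled IFG1 and taken as IGF1. All 50 tumors came from female p53R270H/+WAPCre mice, in which a Cre recombinase turns on a mutant p53 allele; the Cre is under the whey acidic protein promoter, active in mammary epithelium. Treatment by subcutaneous injection began at an age of 8 weeks and was repeated every other day until a tumor reached 1 cm3; the doses are not given in the sources used here. Only tumors classed by the study as EMT-like (epithelial to mesenchymal transition) with a latency near the median of their group were sequenced. X10 is insulin with an amino acid of the B chain exchanged, and IGF1 is a separate hormone of the same family. The comparison asks whether 2 compounds that are both said to work through the IGF1 receptor leave the same transcriptome behind.

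Insulin and IGF1 bind related receptor tyrosine kinases, INSR and IGF1R, which pass the signal through the adaptors IRS1 and IRS2 to the PI3K-AKT-mTOR route and through RAS to the kinases RAF, MEK and ERK. The first route is known for control of protein synthesis, glucose uptake and lipid synthesis, and the second for growth and division. IGF binding proteins hold IGF1 outside the cell and, as a rule, do not bind insulin or its analogues.

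Levels are RPKM, reads per kilobase of gene, scaled to library size, so levels of different genes can be set side by side per length. Differences are X10 minus IGF1 on the scale log2(RPKM + 0.5), so that 1 stands for a 2-fold higher level in X10 tumors and low levels are understated. Library size, recovered from the steps in the RPKM values, was 29.6 to 50.4 M reads in X10 tumors (mean 37.6 ± 6.85, SD, n = 10) and 37.4 to 51.9 M reads in IGF1 tumors (mean 42.3 ± 4.26), a difference of -4.79 M reads (two-sided permutation test, p = 0.0770). The sequencing identifiers of the X10 tumors all precede those of the IGF1 tumors, as do the mouse numbers, so that order of handling and compound cannot be told apart. Processed pseudogenes took 2.35% to 3.81% of the summed RPKM in 8 tumors with consecutive identifiers, from X10_111 to IGF1_128 (6 X10 and 2 IGF1 tumors), and 4.35% to 6.71% in the other 12 (4 X10 and 8 IGF1 tumors). Tumor X10_105 lay 1.16 log2 units (root mean square over genes) from the mean of the other 9 of its group, and tumors IGF1_160 and IGF1_158 lay 0.829 and 0.816 from theirs, while the other 17 lay within 0.692.

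No gene differed between X10 and IGF1 tumors at an adjusted p-value under 0.05 (0 of 16733 genes tested, 0%; limma, Benjamini-Hochberg). The smallest adjusted p was 0.25, for Lmf2. At an unadjusted p under 0.05 there were 1951 genes (11.7%), of which 470 (2.81%) had the higher level in X10 tumors and 1481 (8.85%) the lower. The split depended on scaling, with 863 higher and 807 lower after upper quartile scaling and 675 higher and 1055 lower after quantile normalization. The median difference over all genes was -0.05, and 0.01 after upper quartile scaling; 41.7% of genes had a difference above 0 and 58.3% below. With the processed pseudogene share of each tumor as a covariate, a term chosen after the data were seen, 696 genes had an unadjusted p under 0.05, 230 higher and 466 lower. In the other 9 pairs of the 5 treatment groups, which share tumors with these, the same fit gave 663 to 1949 genes at an unadjusted p under 0.05 and 0 to 298 genes at an adjusted p under 0.05.

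The 95% interval of the difference lay within a 2-fold change in either direction for 14254 genes (85.2%) and within a 1.5-fold change for 8885 genes (53.1%). A difference beyond 2-fold was seen for 1.13% of genes. No gene had every X10 tumor above every IGF1 tumor, and none had every X10 tumor below every IGF1 tumor (0%). In data simulated with 16733 genes and the same groups, 82% of genes changed by a log2 difference of 1 were recovered at an adjusted p under 0.05, but 22% of those changed by 0.5. Recovery of changes of these sizes in the tumors themselves, which include outlying tumors and genes that vary together, was not tested. P-values measure the spread between tumors of different mice.

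The receptors for the injected compounds differed by less than the spread between tumors. Igf1r, the IGF1 receptor (chromosome 7 of GRCm38, 67952827 to 68233668), was at 3.24 RPKM in the lowest X10 tumor, 5.57 at the median and 13.2 in the highest, against 3.74, 5.04 and 7.54 RPKM in IGF1 tumors. The IGF1 range lay inside the X10 range, with 2 X10 tumors above it and 1 below, and the difference of 0.07 had a 95% interval from -0.33 to 0.48. Insr, the insulin receptor (chromosome 8, 3122061 to 3279617), was at 5.92, 7.92 and 12.2 RPKM (lowest, median, highest) in X10 tumors and 4.03, 7.35 and 10.5 RPKM in IGF1 tumors, a difference of 0.18 (95% interval -0.14 to 0.49). Of the IGF and insulin receptor and ligand genes, 5 of 8 were abundant enough to test; all 5 differences were above 0, between 0.07 and 0.33, and none had an unadjusted p under 0.05. Their median difference was 0.21, against -0.05 over all genes, and lay between 0.09 without IGF1_160 and 0.31 without IGF1_124.

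RNA of the ligands was counted in every tumor of both groups. Igf1 was at 6.82, 36.5 and 65.9 RPKM in X10 tumors and 11.2, 27.3 and 48.0 RPKM in IGF1 tumors (lowest, median, highest), a difference of 0.29 with a standard error of 0.36. Igf2, the fetal growth factor of the family, ranged from 2.07 to 1180.2 RPKM in X10 tumors and from 0.355 to 1685 RPKM in IGF1 tumors, with medians of 13.5 and 12.9. This spread within a group left the difference of 0.33 with a 95% interval from -2.81 to 3.47. Igf2r, which clears IGF2 from outside the cell, differed by 0.21 (95% interval -0.22 to 0.63).

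Among the IGF binding proteins, 10 genes were tested; 4 differences were above 0 and 6 below, with a median of -0.05, which was -0.23 without IGF1_158 and 0.07 without IGF1_145. Igfbp3, the main carrier of IGF1 in blood, had a median of 156 RPKM in X10 tumors and 222 in IGF1 tumors and a difference of -0.00 (95% interval -0.65 to 0.65). Igfbp6, which prefers IGF2, had an unadjusted p of 0.0357 and a difference of -1.18 (adjusted p = 0.398, limma). Its levels ran from 7.18 to 15.6 RPKM in X10 tumors and from 4.48 to 589.5 RPKM in IGF1 tumors, so that the range of the IGF1 tumors enclosed every X10 tumor. Without IGF1_158, the difference was -0.68 (unadjusted p = 0.156, limma), and it was -1.59 in the 12 tumors with the larger pseudogene share and 0.52 in the other 8. Igfbp7, which is abundant in vessels and stroma, differed by 0.48 (unadjusted p = 0.0490, adjusted p = 0.426, limma), and by 0.35 without X10_105 (unadjusted p = 0.136, limma). Without IGF1_160 or with the pseudogene share as a covariate, none of the 10 had an unadjusted p under 0.05 with a higher level in X10 tumors.

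**Figure D1:**
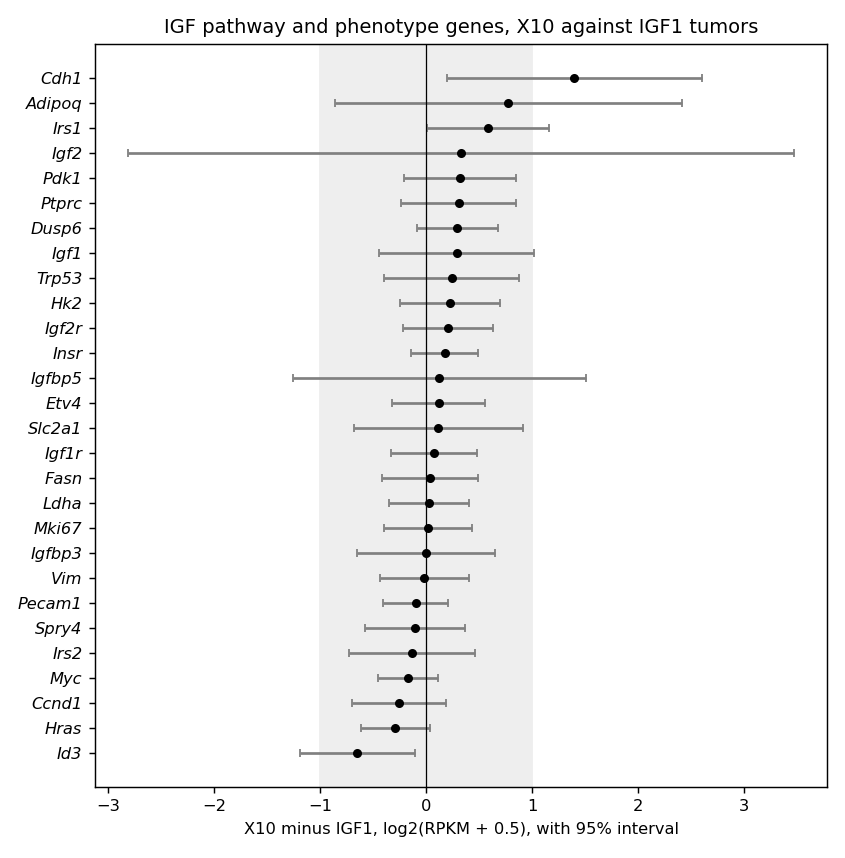
X10 minus IGF1 difference on the log2(RPKM + 0.5) scale, with its 95% interval, for 28 genes of the receptor pathway and of tumor phenotype (n = 10 tumors per group). The shaded band marks a 2-fold change in either direction; the intervals of Cdh1, Irs1 and Id3 exclude 0 before adjustment over all genes, and those of Igf2, Adipoq, Igfbp5 and Cdh1 are the widest.

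Below the receptors, 17 of 32 adaptor and PI3K-AKT-mTOR genes had a difference above 0 and 15 below, with a median of 0.00 that was -0.05 without IGF1_160 and 0.04 without IGF1_143. Irs1, the adaptor shared by both receptors, was at 2.35, 4.87 and 7.32 RPKM in X10 tumors and 0.656, 2.68 and 8.10 RPKM in IGF1 tumors (lowest, median, highest). The groups overlapped over most of their range, and the difference of 0.58 (standard error 0.28) had an unadjusted p of 0.0458 and an adjusted p of 0.419 (limma). Irs2 differed by -0.13 (95% interval -0.72 to 0.46). Tsc2, a brake on mTOR, had a median of 9.47 RPKM in X10 tumors and 11.9 RPKM in IGF1 tumors; 7 of 10 X10 tumors lay below the lowest IGF1 tumor, with a difference of -0.25 (adjusted p = 0.379, limma).

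Rps6kb2 and Akt1s1, which act on this route but were not on the list, were among the 10 with the smallest p-values and lower levels in X10 tumors, although neither passed adjustment. Rps6kb2 encodes a kinase of ribosomal protein S6 that mTOR turns on and was at 8.07, 9.55 and 14.3 RPKM in X10 tumors and 10.1, 16.0 and 24.1 RPKM in IGF1 tumors (lowest, median, highest). In 6 of 10 X10 tumors it was below the lowest IGF1 tumor, and the difference was -0.54 with a standard error of 0.14 (adjusted p = 0.344, limma). Akt1s1, the AKT substrate that restrains mTOR complex 1, was at 32.4, 36.1 and 45.1 RPKM in X10 tumors and 34.7, 49.2 and 95.1 RPKM in IGF1 tumors, a difference of -0.55 with a standard error of 0.15 (adjusted p = 0.344, limma). All 10 X10 tumors lay below the median IGF1 tumor for both genes. In the 12 tumors with the larger pseudogene share the differences were -0.31 for Rps6kb2 and -0.53 for Akt1s1, and in the other 8 they were -0.76 and -0.31.

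The RAS-RAF-ERK kinases were divided, with 7 of 15 differences above 0 and a median of -0.06, which was 0.00 without X10_105. Hras differed by -0.29 (95% interval -0.62 to 0.04). Of 25 genes that ERK turns on or that feed back on it, 15 had a difference above 0, with a median of 0.10, which was -0.00 without X10_100, 0.04 without X10_105 and 0.16 without X10_115. Egr2 and Egr1, immediate early transcription factors, differed by 0.77 and 0.52. They were the 2 of 25 with an unadjusted p under 0.05 and a higher level in X10 tumors, against 2.81% of all genes; neither passed adjustment, and without both X10_105 and IGF1_160 the count was 1. Dusp6, the ERK phosphatase, differed by 0.29 (95% interval -0.09 to 0.67) and Spry4, a feedback inhibitor of the receptor signal, by -0.11.

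FOXO factors and their targets, which AKT holds down, had 8 of 16 differences above 0 and a median of 0.00, which was -0.06 without IGF1_160 and 0.07 without X10_113. Id3, a transcriptional repressor that BMP signals induce, was at 42.4, 58.7 and 252 RPKM in X10 tumors and 48.0, 94.8 and 241 RPKM in IGF1 tumors. A single X10 tumor, X10_105, was above the range of the IGF1 tumors, and 9 of 10 X10 tumors lay below the IGF1 median. The difference was -0.65 (adjusted p = 0.371, limma) and was -0.87 without X10_105. Myc and Ccnd1, growth genes downstream of both routes, differed by -0.17 and -0.26, with 95% intervals from -0.46 to 0.11 and from -0.70 to 0.19.

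The gene with the smallest p-value of all was Lmf2, a lipase maturation factor of the endoplasmic reticulum (chromosome 15, 89351004 to 89355659). It was at 17.8, 25.8 and 30.2 RPKM in X10 tumors and at 25.7, 37.1 and 44.8 RPKM in IGF1 tumors (lowest, median, highest). In 5 of 10 X10 tumors it was below every IGF1 tumor, the ranges overlapping between 25.7 and 30.2 RPKM, and the difference was -0.50 (standard error 0.10; adjusted p = 0.25, limma). The adjusted p passed 0.05 only when IGF1_124 or IGF1_136 was left out, and over all 38 alternative settings it ran from 0.0446 to 0.998. The difference was -0.59 in the 12 tumors with the larger pseudogene share and -0.37 in the other 8.

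Of the 10 genes with the smallest p-values and lower levels in X10 tumors, 5 were annotated as processed pseudogenes (Rpl29-ps5, Gm10221, Gm12497, Gm3150 and Gm5561), whose reads can come from a near-identical coding copy. Rpl29-ps5 was at 2.12, 3.73 and 6.21 RPKM in X10 tumors and 3.79, 7.63 and 12.7 RPKM in IGF1 tumors, a difference of -0.79 that was -0.21 in the 8 tumors with the smaller pseudogene share and -0.76 in the other 12. Gm5561 differed by -0.67 over all 20 tumors, by 0.09 in those 8 and by -0.57 in the other 12. Over all 1856 processed pseudogenes the median difference was -0.23, with 1571 below 0, and it was 0.01 with the pseudogene share as a covariate. The remaining 2 were Tmed1, a cargo receptor of the secretory route, with a difference of -0.62 and medians of 20.7 and 31.4 RPKM, and Supv3l1, the RNA helicase of mitochondria, with a difference of -0.44. For Supv3l1, 8 of 10 X10 tumors lay below the lowest IGF1 tumor, at a median of 22.2 RPKM against 30.5 RPKM (adjusted p = 0.344, limma).

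The 10 genes with the smallest p-values and higher levels in X10 tumors do not share a list. mt-Tk, the mitochondrial lysine transfer RNA, had the largest difference of these, 1.14 with a standard error of 0.27, but rests on 0 to 7 reads a tumor; it was at 0 in 1 X10 tumor and 6 IGF1 tumors. Rdh10, which makes retinaldehyde from vitamin A, was at 11.5, 18.2 and 30.8 RPKM in X10 tumors and 4.09, 12.2 and 17.1 RPKM in IGF1 tumors, a difference of 0.75 (standard error 0.19; adjusted p = 0.344, limma). Kdm5b, a histone demethylase, had a median of 18.0 RPKM against 12.3 RPKM and a difference of 0.54; all 10 X10 tumors lay above the IGF1 median. Frzb, a secreted WNT antagonist, was above the highest IGF1 tumor in 8 of 10 X10 tumors, at medians of 1.36 and 0.38 RPKM and a difference of 0.99. Adss, an enzyme of adenine nucleotide synthesis, was also above the highest IGF1 tumor in 8 of 10 X10 tumors, with a difference of 0.49. The other 5 were Shank1, Mob4, Alox12, Gcnt4 and Cd59a, with differences of 0.73, 0.35, 0.85, 0.91 and 0.81. Each of these 10 genes had a difference above 0 in every alternative setting that tested it, and none had an adjusted p under 0.05 over all 20 tumors. The genes were picked by p-value in these same tumors, so their sign in those settings is no independent check.

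**Figure D2:**
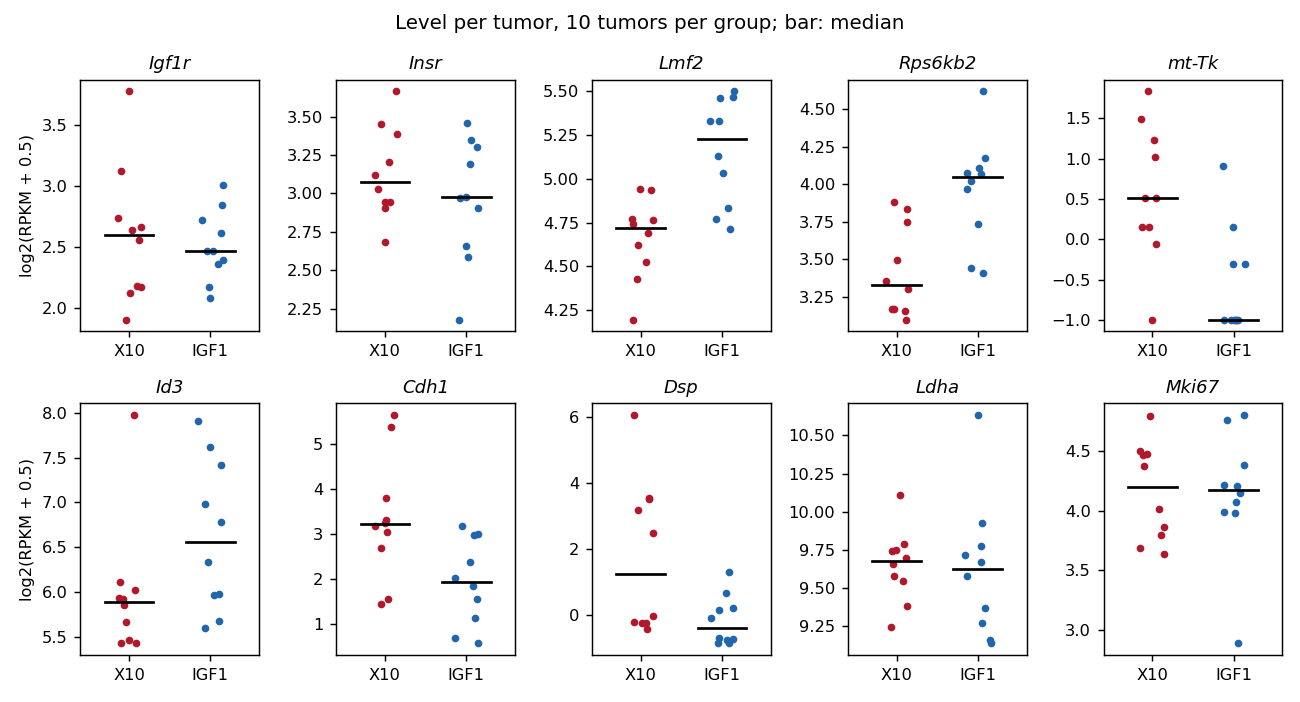
Level of 10 genes in each tumor, as log2(RPKM + 0.5), for 10 X10 tumors (red) and 10 IGF1 tumors (blue); each panel has its own axis and the bar marks the median. The groups overlap in every panel: Lmf2 has 5 X10 tumors and Rps6kb2 6 X10 tumors below all IGF1 tumors, while the ranges of Igf1r, Insr, Ldha and Mki67 overlap for most tumors.

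Glycolysis, the breakdown of glucose to lactate, is the metabolic route that growth factor signals are known to raise in tumors. Of 24 glycolysis and lactate genes 9 had a difference above 0 and 15 below (58.3% of all genes were below). Their median was -0.11, which became 0.01 without IGF1_160 and -0.18 without X10_95. It was 0.09 without both X10_105 and IGF1_160, and 0.04 with the pseudogene share as a covariate. In the 12 tumors with the larger pseudogene share it was 0.16, and in the other 8 it was -0.08. Ldha, which forms lactate, was at 604, 817 and 1106 RPKM in X10 tumors and 561, 787 and 1590.2 RPKM in IGF1 tumors (lowest, median, highest). The difference of 0.03 had a 95% interval from -0.35 to 0.41. Slc2a1, the glucose transporter GLUT1, differed by 0.11 (95% interval -0.68 to 0.91), Hk2, a hexokinase, by 0.23 (-0.25 to 0.70) and Pdk1, which keeps pyruvate out of mitochondria, by 0.32 (-0.21 to 0.85). The member with an unadjusted p under 0.05 was Aldoc, an aldolase isoform, with medians of 18.8 RPKM in X10 tumors and 13.3 RPKM in IGF1 tumors and a difference of 0.84 (adjusted p = 0.368, limma). The summed level of the 24 genes was 4405, 6218 and 10000.3 RPKM in X10 tumors and 5087, 6691 and 14945 RPKM in IGF1 tumors (lowest, median, highest), the highest being IGF1_160.

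All 13 mitochondrially encoded genes of the respiratory chain had a difference above 0 (41.7% of all genes did), with a median of 0.30, and 2 of them, mt-Nd3 (0.41) and mt-Nd1 (0.38), had an unadjusted p under 0.05, against 2.81% of all genes in that direction. mt-Nd1 was at 1814, 2347 and 4385 RPKM in X10 tumors and 1122, 2108 and 2927 RPKM in IGF1 tumors, the lowest being IGF1_160. Without IGF1_160 the median over the 13 genes was 0.14 and none had an unadjusted p under 0.05; in the 12 tumors with the larger pseudogene share it was 0.47 and in the other 8 it was -0.18. Of 38 nuclear respiratory chain genes 17 were above 0 and 21 below, with a median of -0.08, which was -0.04 without IGF1_160. Among them 2 had an unadjusted p under 0.05 with a higher level in X10 tumors, against 2.81% of all genes, and 6 with a lower one, against 8.85%. Without IGF1_160 these counts were 1 and 3. Cox4i1, a subunit of cytochrome c oxidase, had medians of 345 and 447 RPKM and a difference of -0.37 (adjusted p = 0.344, limma). The 15 genes of the tricarboxylic acid cycle had a median of -0.00 (-0.04 without IGF1_160, 0.05 without IGF1_132) and none at an unadjusted p under 0.05.

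Lipid synthesis, a target of insulin, had 17 of 22 differences above 0 (41.7% of all genes did). Its median of 0.19 became 0.08 without IGF1_160. Of the 22 genes 2 had an unadjusted p under 0.05 with a higher level in X10 tumors, against 2.81% of all genes, and 1 without IGF1_160. Scd1, the fatty acid desaturase, was at 13.4, 28.3 and 92.3 RPKM in X10 tumors and 6.81, 21.3 and 45.6 RPKM in IGF1 tumors, a difference of 0.95 (adjusted p = 0.374, limma). Hmgcs1, of cholesterol synthesis, differed by 0.47 and Fasn, fatty acid synthase, by 0.04 (95% interval -0.42 to 0.49). In the synthesis of nucleotides and pentoses 13 of 18 differences were below 0 (58.3% of all genes were). The median was -0.08, which was -0.15 without IGF1_160 and -0.04 without IGF1_145. An unadjusted p under 0.05 was found for 4 with a lower level in X10 tumors, against 8.85% of all genes. It was found for 1 with a higher level, against 2.81%. Without IGF1_160 these counts were 2 and 1. Dhodh, of pyrimidine synthesis, was below the lowest IGF1 tumor in 7 of 10 X10 tumors, with medians of 12.6 and 16.7 RPKM and a difference of -0.45 (adjusted p = 0.344, limma).

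Mki67, a marker of dividing cells, was at 11.9, 18.0 and 27.2 RPKM in X10 tumors and 6.88, 17.6 and 27.4 RPKM in IGF1 tumors, a difference of 0.01 (95% interval -0.40 to 0.43). None of 23 mitosis genes had an unadjusted p under 0.05, and their median of -0.07 was 0.03 without X10_105 and -0.19 without IGF1_160. Of 22 genes of DNA replication 15 were below 0 (58.3% of all genes were), with a median of -0.12, and 4 had an unadjusted p under 0.05 in that direction, against 8.85% of all genes. Without X10_105 that count was 1. Cdt1, which licenses origins, had a difference of -0.39. The median over the 22 genes was -0.02 without X10_100 and -0.19 without IGF1_160; in the 12 tumors with the larger pseudogene share it was -0.37 and in the other 8 it was 0.24.

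Of 77 cytosolic ribosomal protein genes 70 had a difference below 0 (58.3% of all genes did), with a median of -0.18, and 12 of them had (against 8.85% of all genes) an unadjusted p under 0.05 in that direction. That count was 3 without IGF1_160, 17 without X10_105, 3 after upper quartile scaling and 0 with the processed pseudogene share as a covariate. Over all 16733 genes the count in that direction was 1481 in the main fit. It was 1205, 1606, 807 and 466 in these settings, in the same order. Rplp1, a protein of the ribosomal stalk, was at 529, 1128 and 1474 RPKM in X10 tumors and 832, 1376 and 2794 RPKM in IGF1 tumors, a difference of -0.53 (adjusted p = 0.344, limma). The median over the 77 genes was -0.02 with that covariate, 0.03 in the 12 tumors with the larger share and -0.05 in the other 8. Many of these genes have processed pseudogenes with near-identical sequence, and how reads were divided between them was not tested. Of 51 replication-dependent histones listed, 21 were abundant enough to test. Among these, 18 differences were below 0 (58.3% of all genes were), with a median of -0.27. An unadjusted p under 0.05 in that direction was found for 6 of the 21, against 8.85% of all genes. That count was 1 without IGF1_160, 4 without X10_105, 2 after upper quartile scaling and 0 with the covariate, and the median was -0.38 in the 12 tumors with the larger share and 0.07 in the other 8.

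**Figure D3:**
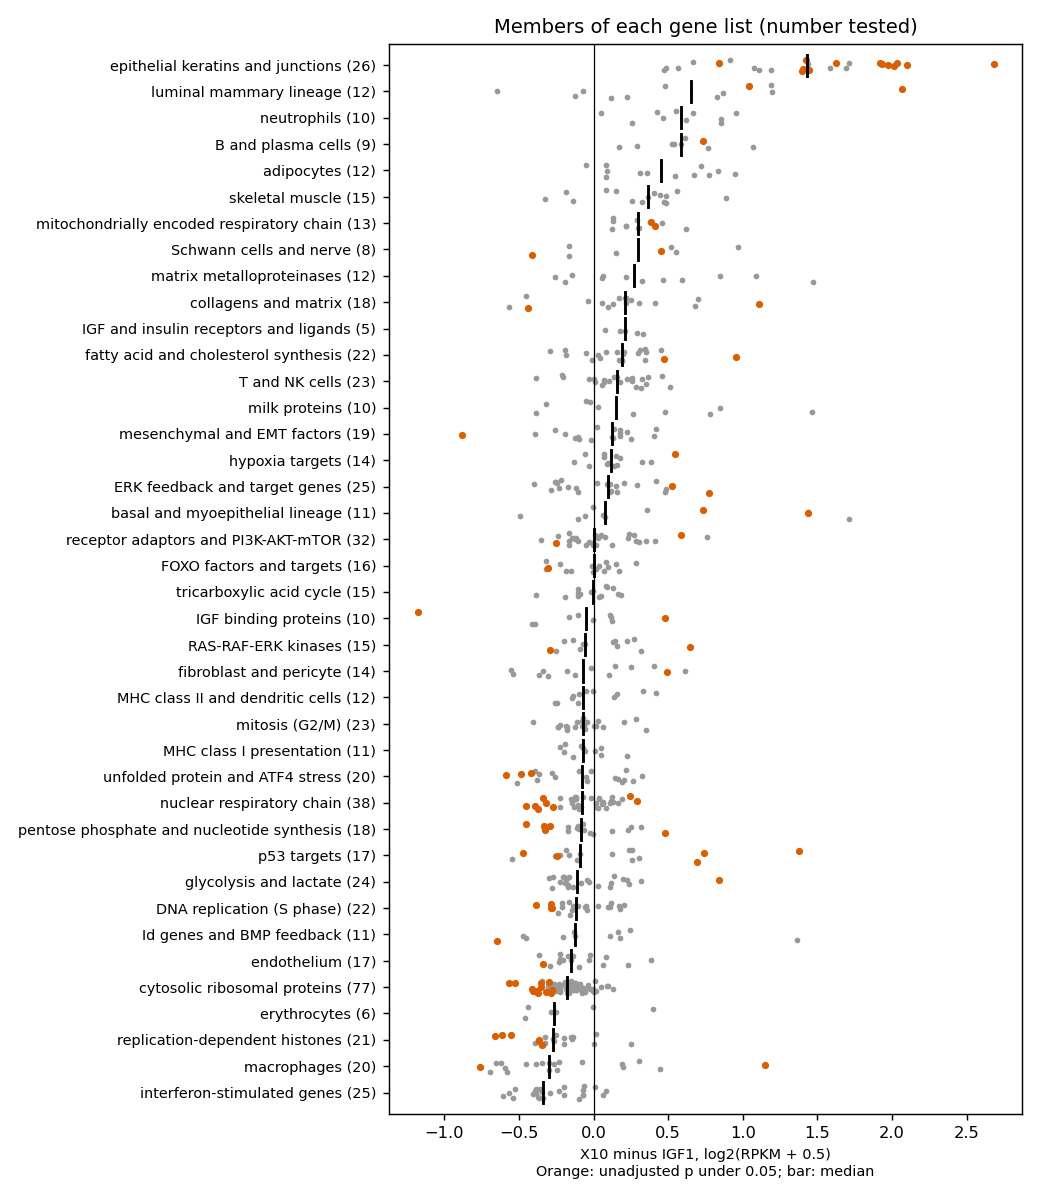
X10 minus IGF1 difference, on the log2(RPKM + 0.5) scale, of every tested member of the 40 gene lists, sorted by the median (bar); orange points have an unadjusted p under 0.05 and grey points do not. The epithelial list stands apart at a median of 1.43 with all 26 members above 0, and interferon-stimulated genes are at the other end at -0.34 with none at an unadjusted p under 0.05.

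Epithelial genes had the largest median of the 40 lists. All 26 tested keratins, junction proteins and epithelial regulators had a difference above 0 (41.7% of all genes did), with a median of 1.43, and 13 of them had (against 2.81% of all genes) an unadjusted p under 0.05; none had an adjusted p under 0.05. Fewer epithelial cells and less epithelial RNA per cell cannot be told apart in bulk tumors. Dsp, the desmosome protein that anchors keratin filaments, had the smallest p-value of the list and levels of 0.247, 2.83 and 66.9 RPKM in X10 tumors against 0.052, 0.281 and 1.97 RPKM in IGF1 tumors (lowest, median, highest). In 5 of 10 X10 tumors it was above every IGF1 tumor, the others lying in the IGF1 range, and the difference was 1.93 (standard error 0.69; adjusted p = 0.345, limma).

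The promoter of Dsp is shown because repressors of the epithelial state, such as SNAI1 and ZEB1, are known to bind the E-box CAGGTG, and Dsp had the smallest p-value of the list. It covers 250 bases before to 50 bases after the gene start, chr13:38151044-38151343 of GRCm38.p6, plus strand, from RefSeq, with the E-box in capitals:
Dsp: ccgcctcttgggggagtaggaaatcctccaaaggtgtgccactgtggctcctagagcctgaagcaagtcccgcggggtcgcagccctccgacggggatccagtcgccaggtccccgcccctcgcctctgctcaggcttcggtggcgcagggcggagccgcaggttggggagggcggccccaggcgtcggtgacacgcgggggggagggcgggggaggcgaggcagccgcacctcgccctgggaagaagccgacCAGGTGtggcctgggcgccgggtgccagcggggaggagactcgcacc
The motif was searched on both strands as CAGGTG or CACCTG, and the single match begins at base 254 of the 300. Of the 28 genes listed, 17 had a promoter in the RefSeq table, 20 promoters in all; 14 of these (70%) held the motif, against 20.2% of all 32851 promoters. These counts describe sequence only.

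Cdh1, E-cadherin (chromosome 8, 106603351 to 106670246), was at 2.23, 8.85 and 49.5 RPKM in X10 tumors and 0.993, 3.33 and 8.59 RPKM in IGF1 tumors. It was above every IGF1 tumor in 6 of 10 X10 tumors, with a difference of 1.40 (adjusted p = 0.375, limma). Epcam, an adhesion protein of epithelium, had medians of 8.06 and 2.33 RPKM and a difference of 2.03 (adjusted p = 0.371, limma). Krt7, a keratin of simple epithelium, had the largest difference of the list, 2.68, and Jup, which desmosomes and adherens junctions share, had 0.49.

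The epithelial difference rested on part of the X10 tumors. The summed level of the list was 215, 423 and 6550.1 RPKM in X10 tumors and 119, 259 and 884 RPKM in IGF1 tumors (lowest, median, highest), and 3 of 10 X10 tumors, X10_100, X10_105 and X10_111, were above every IGF1 tumor. Without X10_105 the median over the list was 1.09 and 3 of the 26 genes, Dsp, Pkp1 and Grhl2, had an unadjusted p under 0.05; Cdh1 was then at a difference of 1.14 (unadjusted p = 0.0632, limma). Without both X10_105 and IGF1_160 the median was 1.05 and 5 genes had an unadjusted p under 0.05. The median was 1.73 in the 12 tumors with the larger pseudogene share and 1.31 in the other 8.

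Luminal genes of the mammary gland had 9 of 12 differences above 0 (41.7% of all genes did). Their median was 0.65, which was 0.33 without IGF1_158. Among them was Prlr, the prolactin receptor, at medians of 3.29 and 0.853 RPKM and a difference of 1.04 (adjusted p = 0.378, limma). Basal and myoepithelial genes had 7 of 11 differences above 0, the lowest being -0.50, and a median of 0.08, which was 0.02 without IGF1_132 and 0.37 without IGF1_158. Of them 2 had an unadjusted p under 0.05 with a higher level in X10 tumors, against 2.81% of all genes. That count was 1 without X10_105 and 0 without both X10_105 and IGF1_160. The median of the basal list was 0.00 in the 12 tumors with the larger pseudogene share and 1.24 in the other 8. Trp63, the regulator of basal cells, was at 0.055, 1.11 and 29.1 RPKM in X10 tumors and 0.066, 0.218 and 3.71 RPKM in IGF1 tumors, with a difference of 1.43 (adjusted p = 0.345, limma). The 10 milk protein genes had a median of 0.15, which was -0.09 without X10_105 and 0.44 without IGF1_145, and none at an unadjusted p under 0.05.

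Vim, the mesenchymal filament vimentin, was at 1480.1, 4346 and 5762 RPKM in X10 tumors and 2435, 4056 and 5179.8 RPKM in IGF1 tumors, a difference of -0.02 (95% interval -0.44 to 0.40). In both groups vimentin was far above E-cadherin per length. Of 19 mesenchymal genes 11 were above 0, with a median of 0.12 that was -0.05 without X10_116; S100a4, a calcium-binding protein of migrating cells, had medians of 230.1 and 409.9 RPKM and a difference of -0.88 (adjusted p = 0.408, limma). Collagens and matrix genes had a median of 0.21, which was 0.05 without IGF1_132, and matrix metalloproteinases had one of 0.27, which was 0.07 without X10_100 and 0.51 without X10_95. For fibroblast and pericyte genes it was -0.07, with 0.02 without IGF1_158 and -0.14 without X10_105.

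Trp53 itself, of which these tumors carry a mutant allele, differed by 0.24 (95% interval -0.40 to 0.88), and the table does not separate the alleles. Of 17 p53 targets 8 were above 0. An unadjusted p under 0.05 was found for 3 with a higher level in X10 tumors, against 2.81% of all genes, and for 2 with a lower one, against 8.85%; without X10_105 these counts were 1 and 3. The score of the list was 0.72 in X10_105 and at most 0.12 in the other X10 tumors (mean over its genes of the log2 level minus that of all 50 tumors of the series). Pmaip1, the death protein NOXA, had a difference of 0.74 and Bbc3, the death protein PUMA, one of -0.47. Hif1a, the hypoxia factor, differed by 0.55 (adjusted p = 0.386, limma), while the 14 hypoxia targets had a median of 0.12 that became -0.07 without X10_100 and 0.25 without X10_115. Stress genes of the unfolded protein response and ATF4 had 13 of 20 differences below 0 (58.3% of all genes were) and a median of -0.08, which was -0.14 without X10_120 and -0.03 without X10_111. Of them 3 had an unadjusted p under 0.05 in that direction, against 8.85% of all genes; Psat1, of serine synthesis, differed by -0.49 (adjusted p = 0.364, limma).

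Markers of immune and other cells varied widely within each group. All 10 neutrophil genes were above 0 (41.7% of all genes were) with a median of 0.59 (0.38 without X10_100), none at an unadjusted p under 0.05. Their summed level was 62.2 to 1218 RPKM in X10 tumors and 48.9 to 607 RPKM in IGF1 tumors. All 9 B and plasma cell genes were above 0, against 41.7% of all genes, with a median of 0.59, which was 0.05 without X10_105. Of 25 interferon-stimulated genes 22 were below 0 (58.3% of all genes were) with a median of -0.34, which became -0.05 without IGF1_136. It was -0.40 in the 12 tumors with the larger pseudogene share and 0.12 in the other 8. Macrophage genes had a median of -0.30; within that list Spp1, osteopontin, which carcinoma cells also make, had medians of 1240.1 and 880.1 RPKM and a difference of 1.15, and Trem2, a lipid receptor of macrophages, had -0.76. Skeletal muscle genes, of tissue next to the gland, summed to between 15.8 and 4090.4 RPKM in X10 tumors and between 13.8 and 3027 RPKM in IGF1 tumors, and their median of 0.37 was -0.15 without X10_105 and 0.91 without IGF1_135. Adipocyte genes had a median of 0.45, 0.27 without X10_105. T and NK cell genes had a median of 0.16, which was -0.10 without X10_105 and 0.29 without X10_116, and Schwann cell and nerve genes one of 0.30. For endothelial genes it was -0.15, and -0.03 without X10_111, and for erythrocyte genes -0.27, with -0.06 without X10_118 and -0.45 without X10_111. The median of MHC class I genes was -0.07, with 0.10 without IGF1_158 and -0.20 without X10_105. That of MHC class II and dendritic cell genes was also -0.07, with 0.20 without X10_116 and -0.32 without IGF1_145. With muscle, adipocyte and macrophage scores as covariates, 1840 genes had an unadjusted p under 0.05 (limma), 459 higher and 1381 lower, and 0 passed adjustment. Beyond that fit, the part of these cells in the differences above was not tested.

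The mean Spearman correlation over genes was 0.920 among X10 tumors, 0.926 among IGF1 tumors and 0.922 between tumors of different groups. The mean within groups, 0.923, was not separated from that between them (permutation of the group over the 20 tumors, p = 0.0622; over the tested genes alone, p = 0.164). The mean distance of a tumor from the other 9 of its group was 0.628 ± 0.198 for X10 and 0.613 ± 0.128 for IGF1 (SD, n = 10 each; two-sided permutation test, p = 0.864). The first 3 principal components held 19.6%, 14.9% and 12.0% of the variance. Scores differed between groups by 16.7, 30.1 and -7.28 (permutation tests, p = 0.362, 0.0225 and 0.584; adjusted over the 3 components 0.543, 0.0676 and 0.584). On the second component 5 X10 tumors were above every IGF1 tumor, X10_105 at 13.5 and X10_100, X10_111, X10_116 and X10_118 at 40.1 to 53.3, and IGF1_158 was at the other end, at -71.3. Its leading genes at the positive end included Krt7, Mmp13 and Slpi, and at the negative end the neuronal genes Uchl1, Nefl and Stmn2.

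**Figure D4:**
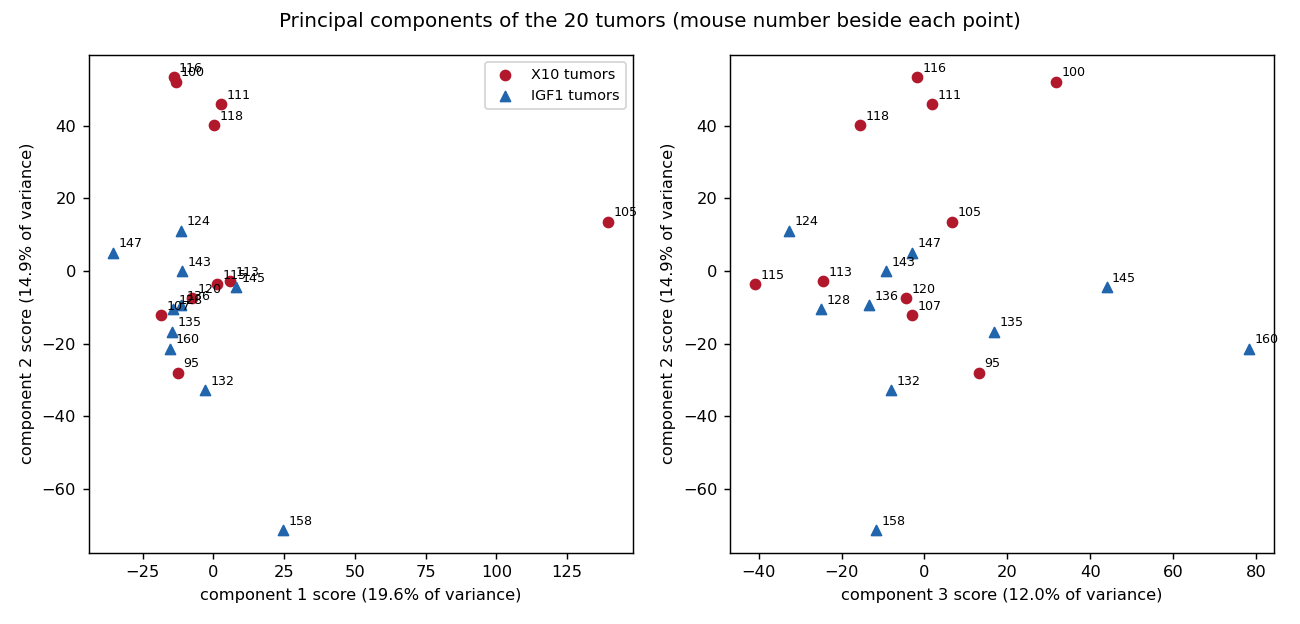
Scores of the 20 tumors on the leading 3 principal components of log2(RPKM + 0.5) over 16733 genes, with the mouse number beside each point; circles are X10 tumors and triangles IGF1 tumors. X10_105 stands alone on the first component at 139, IGF1_160 on component 3 at 78.4, IGF1_158 at the low end of the second at -71.3, and 4 X10 tumors at its high end.

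Neighbouring genes of chromosome 9 were high together in single tumors of both groups; these genes were chosen after their values were seen. Over the 16 tested coding genes from Mmp13 to Arhgap42 (chromosome 9 of GRCm38, 7272514 to 9239101), the median deviation from the median of all 50 tumors was 3.36 log2 units in X10_100, 2.69 in X10_116, 2.41 in IGF1_145 and 1.30 in X10_105. It was 0.93 in X10_118, between -0.49 and 0.52 in the other 15 tumors, and above 1 in 2 of the 30 tumors of the other treatments. Yap1, a growth regulator of the Hippo pathway, had medians of 72.6 RPKM in X10 tumors and 59.8 RPKM in IGF1 tumors, and reached 1182 RPKM in X10_100 and 2884 RPKM in IGF1_145. Birc2, an inhibitor of cell death, reached 302 RPKM in IGF1_145. DNA copy number was not measured.

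**Figure D5:**
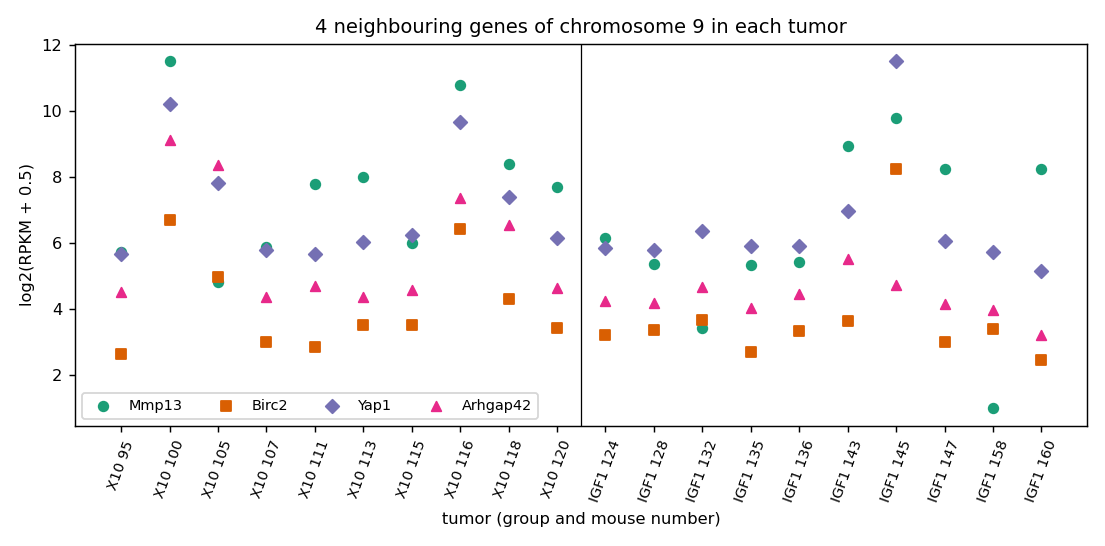
Level of 4 neighbouring genes of chromosome 9 in each of the 20 tumors, as log2(RPKM + 0.5), X10 tumors left of the line and IGF1 tumors right of it. Mmp13, Birc2 and Yap1 are high together in X10_100, X10_116 and IGF1_145, while Arhgap42 is high in X10_100 and X10_116 but not in IGF1_145.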

How the data were processed

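RNA of 50 mammary tumors, 10 per treatment, was sequenced after poly-A selection on the Ion Proton. The authors aligned reads to GRCm38 with TopHat2 2.0.10, aligned the remainder with Bowtie2, counted reads per gene with HTSeq 0.6.1 and deposited RPKM values, read counts scaled by library size and gene length. Their own tests against vehicle used DESeq2 1.2.10 and were not repeated. Reads from near-identical copies, such as processed pseudogenes, can be divided between genes by this counting.

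Library sizes were recovered from the RPKM steps. Values were taken as log2(RPKM + 0.5) and genes averaging under 0.5 RPKM across the 50 tumors were dropped, which left 16733 of 37701. One limma fit (limma 3.58.1, R 4.3.3, intensity trend, 5 groups) gave the contrast X10 minus IGF1, with Benjamini-Hochberg adjustment over all genes tested and a threshold of 0.05. The fit was tested on simulated data. Values per tumor were compared by two-sided permutation tests with 100000 resamples (Python 3.11.15, numpy 2.4.6, scipy 1.17.1, pandas 2.3.3); figures used matplotlib 3.10.9. Gene types and coordinates came from GENCODE M21.

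The tumors compared, the gene lists and the pathway genes were chosen with earlier results of these data known. Genes named are a fixed set of pathway and phenotype genes, the 10 with the smallest p in each direction, and from each list the member with the smallest unadjusted p where under 0.05; some items are not reported here, and other names were chosen after their values were seen. Samples were grouped by their titles. There were 38 alternative settings: 20 left out a tumor each, and the others changed the pseudocount, filter, scaling, samples, weights, covariates or genes tested; 5 of them were added after the data were seen.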

Additional observations from a re-analysis of the deposited data

Results flagged for a closer look

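Of 184 groups of 10 values examined, 25 held a tumor far from the other 9 of its group (by the gap to its neighbour over the range). Chance gives about 1 in 20 for independent groups of values; these are RPKM of genes that vary together, some of them named after their values were seen, so that the count cannot be set against that rate. X10_105 accounted for 8 of them: 139 on the first principal component, a distance of 1.16 from its group, 252 RPKM for Id3, 83.3 for Hras, 2.91 for Shank1, and low values of 1480.1 RPKM for Vim, 21.8 for Met and 2.05 for Spry4. IGF1_160 accounted for 5: a GC slope of 0.62 log2 units per 10 points, 1590.2 RPKM for Ldha, 829 for Cox4i1, and low values of 6.88 RPKM for Mki67 and 4.59 for Ptprc. IGF1_158 was low in 4, at -71.3 on the second component, 2435 RPKM for Vim, 63.8 for Spp1 and 4.09 for Rdh10. IGF1_145 was high in 3, at 2884 RPKM for Yap1, 302 for Birc2 and 3.71 for Trp63. X10_107 was high for Supv3l1 at 34.7 RPKM and for Prx at 1.70 RPKM. X10_100 was high for Pdk1 at 91.3 RPKM, X10_95 was low for Igf1 at 6.82 RPKM, and IGF1_143 had the largest library at 51.9 M reads.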

How the results depend on the processing

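The count of genes at an adjusted p under 0.05 (limma) was 0 in all 18 alternatives that kept or jointly changed the tumors, and ran from 0 to 8 when a tumor was left out; it was 8 without IGF1_124 and 1 (Lmf2) without IGF1_136. The count at an unadjusted p under 0.05 was 4129 with no filter on low values, 696 with the pseudogene share as a covariate, 1025 in the 12 tumors with a share of 4% or more and 801 in the 8 under 4%, and ran from 1422 to 2569 when a tumor was left out. Higher and lower genes at that level numbered 2445 and 1684 with no filter, 318 and 707 at the larger share and 362 and 439 at the smaller. By medians, the library size difference was -7.14 M reads (permutation test, p = 0.0117) and the distance difference -0.025. No paired analysis was possible because the 2 groups share no replicate numbers.

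Of 85 named genes, 59 had the same sign in every setting. For the other 26, values of the opposite sign follow. In tumors with a pseudogene share under 4% the difference was 0.52 for Igfbp6, 0.086 for Gm5561, 0.57 for Hist1h2ao, 0.31 for Isg15, 0.045 for Hras, 0.069 for Vim, -0.26 for Insr, -0.18 for Igf2r, -0.22 for Trp53, -0.22 for Dusp6, -0.32 for Ptprc, -0.20 for Pdk1, -0.081 for mt-Nd1 and -0.63 for Krt8. At a share of 4% or more the difference was 0.34 for Irs2, 0.021 for Pecam1, 0.31 for Igfbp3, -0.28 for Mki67, -0.11 for Etv4, -0.14 for Igfbp5 and -0.13 for Igf2. With array weights the difference was 0.047 for Vim, -0.16 for Fasn, -0.040 for Igf1r, -0.042 for Slc2a1, -0.046 for Igfbp5 and -0.0057 for Insr. With muscle, adipocyte and macrophage scores as covariates the difference was 0.040 for Vim, 0.014 for Igfbp3, -0.066 for Fasn and -0.090 for Igf2. With upper quartile scaling the difference was 0.053 for Vim and 0.068 for Igfbp3. With quantile normalization the difference was 0.078 for Igfbp3. With library size as a covariate the difference was 0.18 for Igfbp3 and -0.022 for Mki67. With the GC slope as a covariate the difference was 0.099 for Igfbp3, -0.23 for Mki67, -0.0013 for Fasn, -0.051 for Igfbp5 and -0.43 for Igf2. With the pseudogene share as a covariate the difference was -0.066 for Mki67 and -0.10 for Igf2. Without both X10_105 and IGF1_160 the difference was 0.18 for Vim, 0.079 for Igfbp3, -0.093 for Mki67, -0.022 for Fasn, -0.21 for Igfbp5 and -0.013 for Ptprc. With each tumor left out in turn, differences crossed 0, from -0.22 to 0.030 for Spry4, -0.099 to 0.14 for Vim, -0.21 to 0.10 for Igfbp3, -0.13 to 0.088 for Mki67, -0.027 to 0.14 for Ldha, -0.076 to 0.17 for Fasn, -0.057 to 0.15 for Igf1r, -0.082 to 0.28 for Slc2a1, -0.17 to 0.38 for Igfbp5, -0.0074 to 0.39 for Trp53 and -0.30 to 1.06 for Igf2. The cause was not tested.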

Other observations

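The genes below were chosen after their values were seen. Cdkn2a, which encodes the tumor suppressors p16INK4a and p19ARF, was at 71.7, 258 and 515 RPKM in X10 tumors and 272, 447 and 881 RPKM in IGF1 tumors (lowest, median, highest). In 5 of 10 X10 tumors it was below every IGF1 tumor, and the difference was -1.07 (standard error 0.29; adjusted p = 0.344, limma, and 0.0879 to 0.998 over the alternative settings). Capza2, an actin capping protein next to Met on chromosome 6, ran from 250.5 to 22082 RPKM in X10 tumors and from 298 to 6933 RPKM in IGF1 tumors, with 5 X10 tumors above every IGF1 tumor and a difference of 1.54 (adjusted p = 0.415, limma, and 0.249 to 1 over the alternative settings). Met, a growth factor receptor, had medians of 1229.7 and 744 RPKM and a difference of 1.13 (95% interval -0.58 to 2.85). Isg15, an interferon target, reached 252 RPKM in an IGF1 tumor against medians of 19.2 and 27.5 RPKM. Differences of coding genes followed GC content, with medians of 0.10, 0.02, -0.04, -0.11 and -0.16 over 5 equal bins from the lowest to the highest. The 140 immunoglobulin variable genes tested had a median difference of 0.71, which was 0.04 without X10_105.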
